A study of Rattus norvegicus with 6 samples.

Results

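The genes described here are 6 that let kidney cells live beside concentrated urine: the transcription factor gene Nfat5, the sorbitol-making enzyme gene Akr1b1, the osmolyte importer genes Slc5a3, Slc6a12 and Slc6a6, and the urea transporter gene Slc14a2. They were named as a list and found on the array by the RefSeq transcript to which each probe is assigned, which gave 16 probes for all 6 genes, of 15284 genes named on the array and 11748 tested. The tissue was renal cortex, taken from male rats of the Sprague-Dawley strain (Crl:CD(SD)) that were bought at 5 weeks of age. A control group of 3 rats was given corn oil, and 3 rats were given 750 mg/kg/day of 2-amino-4-nitrophenol, which is known as a hair dye ingredient, both for 4 weeks. Each rat had 1 single-colour array, so each group has n = 3, and 3 arrays per group limit the precision of every value.

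As background, cells in hypertonic surroundings take up or make small organic osmolytes, which balance the outside salt without disturbing proteins. Sorbitol is made inside the cell by aldose reductase, and myo-inositol, betaine and taurine are carried in with sodium. The transcription factor NFAT5, also called TonEBP, binds tonicity enhancer elements of these genes, and it drives urea transporter UT-A too. The system is best known from the renal medulla, where urine is concentrated. The cortex, which was sampled here, lies in near-isotonic surroundings and is made mostly of proximal tubule.

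All values below are log2 processed intensities relative to the 75th percentile of the array's own non-control probes, and each gene is read from its brightest probe that passed a filter on dim signal. Between 61.6% and 66.3% of the 61657 non-control probes were well above background on the treated arrays, against 68.1% to 70.9% on the corn oil arrays. Treated replicate 2 had the lowest share and the lowest 75th percentile of intensity, 564 against 627 to 852 on the other arrays. Corn oil replicates 1 and 3 (row 1) and all treated arrays (row 2) were on the same slide, so that row and treatment cannot be told apart there. Corn oil replicate 2 was alone on another slide, in row 2. Markers were read beside the label of renal cortex, but they do not show how much tissue of other regions was included. All 7 proximal tubule markers were measured, with Slc34a1, the phosphate transporter, at 8.01, 7.99 and 8.03 on the corn oil arrays. The thick ascending limb marker Umod was as bright there, at 8.17, 8.17 and 8.04.

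None of the 6 members passed the test between the groups (limma, adjusted p from 0.191 to 0.943). Of all genes tested, 3 (0.0255%) passed it. At an unadjusted p under 0.05 there was 1 member, Nfat5, lower in the treated cortex, where 21.6% of all genes passed that level in either direction and 7.29% as lower. None had an adjusted p at or under 0.1, which 1.12% of all genes had. The arrays of the groups did not overlap for the same 1 of 6 members (16.7%), against 30.2% of all genes in either direction and 10.1% as lower, so that this count is no result about the members. The median log2 change of the members was 0.054, beside 0.044 over all genes tested. In bulk RNA, fewer cells of a type and less RNA per cell cannot be told apart.

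**Figure D1:**
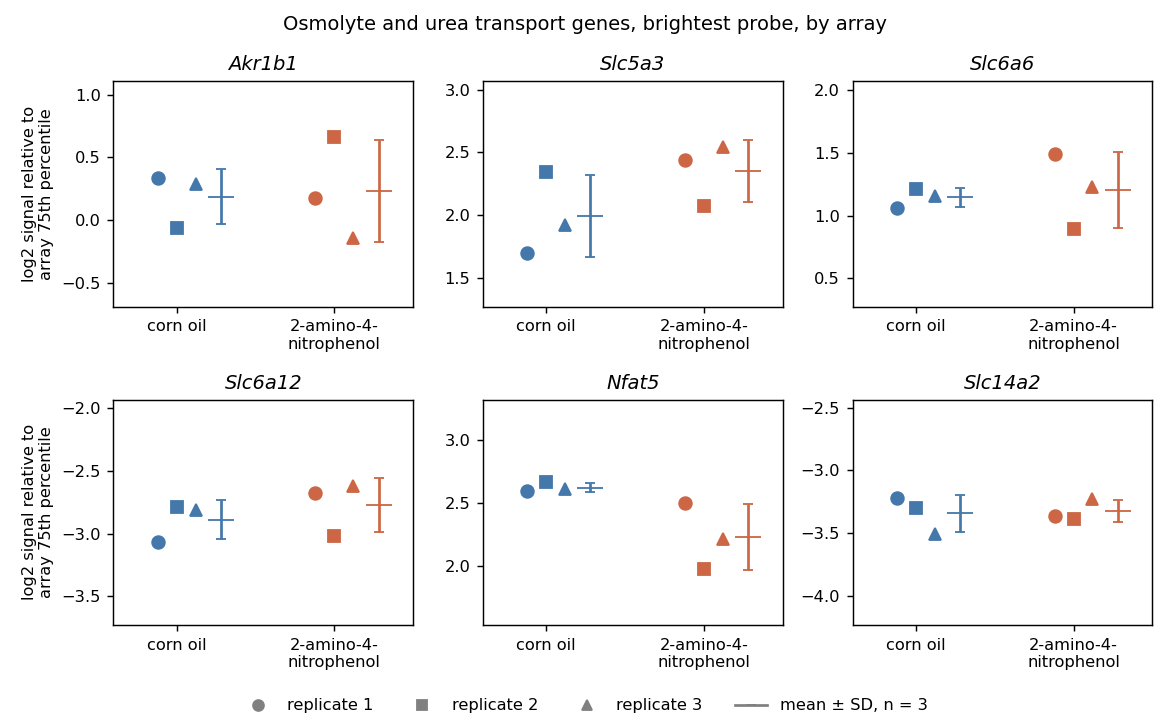
Signal of each member on each array, as log2 relative to the 75th percentile of the array, with the mean and SD of each group beside the points and a span of equal height in every panel. Only for Nfat5 do all treated points (1.98 to 2.50) lie below all corn oil points (2.60 to 2.66).

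Nfat5 encodes the transcription factor that is known to act on the other members in hypertonic surroundings. On its brightest probe the log2 values were 2.60, 2.66 and 2.61 on corn oil replicates 1, 2 and 3. They were 2.50, 1.98 and 2.21 on treated replicates 1, 2 and 3. Every treated value was below every corn oil value, by a narrow margin on replicate 1 and by the widest on replicate 2. The corn oil rats were close together (2.62 ± 0.036, SD, n = 3), and the treated rats were spread 7.35 times as widely (2.23 ± 0.26). Treated arrays were more spread in general, with a median SD over all genes tested of 0.167 against 0.105 with corn oil. The log2 change was -0.39 ± 0.14 (SE), which puts the treated mean at 76.1% of the corn oil mean, with a 95% interval from -0.74 to -0.052. Its limma adjusted p over all genes tested was 0.191. Before any scaling between arrays, the linear intensity of the same probe was 5151, 4712 and 4850 with corn oil and 3880, 2216 and 2899 with treatment. Across all non-control probes the 75th percentile was also lower with treatment, at 685, 564 and 627 against 852, 743 and 794 with corn oil. The unscaled values therefore also carry the brightness of the arrays.

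Nfat5 is measured by 4 probes, all assigned to transcript NM_001107425 and all well above background on the 6 arrays. The other probes gave log2 changes of -0.46, -0.31 and -0.46 in order of falling signal, with SE of 0.15, 0.11 and 0.14. On all 4 of 4 probes the 3 treated arrays lay below the 3 corn oil arrays. The third probe, for instance, had -1.77, -1.73 and -1.55 on the corn oil arrays and -1.89, -2.16 and -1.92 on the treated arrays. The probes read the same RNA samples, so that they repeat the measurement but add no animals. Of the 459 genes with at least 4 kept probes, 7 (1.53%) were lower on every one without overlap, a count that was made after the values of Nfat5 were seen. Fitted as features of their own, the 4 probes had limma adjusted p of 0.163 to 0.204 over the 20345 named probes that were kept.

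**Figure D2:**
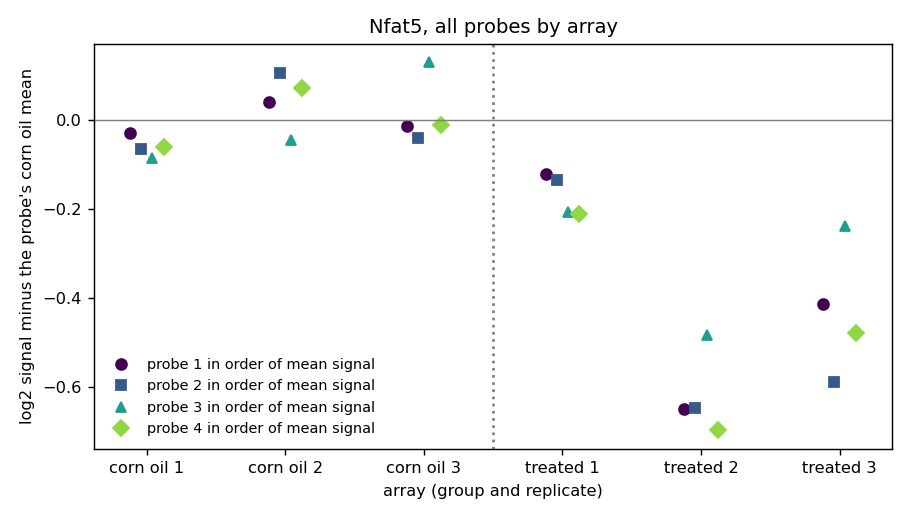
Signal of the 4 Nfat5 probes on each array, as log2 minus the mean of that probe over the corn oil arrays; the dotted line parts the groups, and probes are numbered by falling mean signal. All 4 probes are below the corn oil points on every treated array, and all are lowest on treated replicate 2.

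The size of the Nfat5 difference rested in part on single rats. Without treated replicate 2, the dimmest array, the log2 change was -0.27, and without treated replicate 1 it was -0.53. It remained negative in all 20 alternatives tried, between -0.71 and -0.27, with limma adjusted p between 0.0664 and 0.403. Its unadjusted p was over 0.05 with the slide as a block (0.0806) and in 5 of the 6 fits that left out 1 array. Markers of some distal segments had medians below 0 as well, while those of the thick ascending limb had a median of 0.35. For the distal convoluted tubule and connecting tubule, 4 of 6 listed markers were measured (Trpm6 has no named probe and Pvalb did not pass the filter). Their median log2 change was -0.45. Relative to the corn oil means, the median of these markers was -0.30, -0.475 and -0.65 on treated replicates 1, 2 and 3. Their summed level was 22.7 to 29.2 in the corn oil group and 16.5 to 20.4 in the treated group, in multiples of the 75th percentile. Of 7 markers of collecting duct principal cells, 6 were measured, and their median was -0.30. Their sums overlapped, at 201 to 217 against 163 to 217. Without Aqp2, which had a change of 0.18, the sums were 113 to 129 against 85.7 to 103. None of these markers passed the test, and their part in the Nfat5 difference was not tested.

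Akr1b1 encodes aldose reductase, which reduces glucose to sorbitol. Its brighter probe read 0.33, -0.067 and 0.29 on corn oil replicates 1, 2 and 3, and 0.18, 0.67 and -0.14 on treated replicates 1, 2 and 3. The highest and the lowest value were both from treated rats, and the groups overlapped throughout. The log2 change was 0.049 ± 0.22 (SE), with a 95% interval from -0.50 to 0.59 (limma adjusted p = 0.919). That interval does not separate a fall from a rise. The sign hung on single arrays, since the change was -0.17 without treated replicate 2 and -0.077 without corn oil replicate 2, and it was -0.27 after scaling on spike-in controls. The second probe, with a lower signal, gave 0.067 ± 0.21 and the same highest and lowest arrays.

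The 3 importers each bring in 1 osmolyte with sodium: Slc5a3 (also called SMIT) carries myo-inositol, Slc6a12 (BGT1) carries betaine and Slc6a6 (TauT) carries taurine. They are the members through which NFAT5 is best known to act on uptake, so their upstream sequences are shown for the tonicity enhancer element, whose first bases are TGGAAA. RefSeq promoter entries on GRCr8 were found for 4 of the 6 members, and the 250 bases before the start of each importer are given 5′ to 3′ on the gene's strand. Capitals mark a match to the whole tonicity enhancer consensus on either strand.
Slc6a6, chr4:125752252-125752501, plus strand: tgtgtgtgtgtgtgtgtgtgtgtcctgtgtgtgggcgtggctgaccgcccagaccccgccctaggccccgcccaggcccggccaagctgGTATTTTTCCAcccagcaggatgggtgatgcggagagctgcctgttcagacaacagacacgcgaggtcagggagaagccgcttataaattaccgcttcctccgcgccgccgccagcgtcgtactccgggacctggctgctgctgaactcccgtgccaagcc
Slc5a3, chr11:44799537-44799786, plus strand: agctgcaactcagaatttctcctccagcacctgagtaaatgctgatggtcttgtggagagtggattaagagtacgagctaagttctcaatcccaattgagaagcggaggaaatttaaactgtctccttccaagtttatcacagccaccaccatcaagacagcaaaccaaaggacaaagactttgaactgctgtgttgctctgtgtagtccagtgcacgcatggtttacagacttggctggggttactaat
Slc6a12, chr4:156257268-156257517, plus strand: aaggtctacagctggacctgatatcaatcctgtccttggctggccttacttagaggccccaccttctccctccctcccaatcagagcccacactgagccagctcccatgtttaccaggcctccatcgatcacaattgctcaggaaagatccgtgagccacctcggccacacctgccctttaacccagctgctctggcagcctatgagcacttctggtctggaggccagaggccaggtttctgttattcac

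The Slc6a6 window holds 1 match, on the antisense strand, from base -161 to base -151 before the start. The other 2 printed windows and both Slc14a2 starts hold neither the consensus nor TGGAAA on either strand. Over all 33469 promoter windows of that length, 5.17% hold the consensus and 19.7% hold TGGAAA on either strand, the second motif being part of the first. A match is a description of letters, and no match says only that the letters are not in this window.

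Slc6a6, whose window holds the match, read 1.06, 1.21 and 1.16 on corn oil replicates 1, 2 and 3 and 1.49, 0.89 and 1.23 on treated replicates 1, 2 and 3. The treated rats lay on both sides of the corn oil range. The log2 change was 0.058 ± 0.16 (SE), with a 95% interval from -0.33 to 0.44 (limma adjusted p = 0.855), and it was -0.26 after spike-in scaling. The spread among treated rats was 3.88 times that among corn oil rats, with SD of 0.30 and 0.077. The median SD over all genes tested was 0.167 and 0.105. Without treated replicate 1 the change was -0.086. The other probe gave 0.013 ± 0.14, and there too treated replicate 1 was the highest array and treated replicate 2 the lowest.

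Slc5a3 had the largest positive difference of the members. Its brightest probe read 1.70, 2.35 and 1.92 on corn oil replicates 1, 2 and 3 and 2.44, 2.07 and 2.54 on treated replicates 1, 2 and 3. Corn oil replicate 2, alone on its slide, lay among the treated arrays, and corn oil replicates 1 and 3 lay below all of them. The log2 change was 0.36 ± 0.20 (SE; 1.28-fold), with a 95% interval from -0.13 to 0.85 (limma adjusted p = 0.340). Within the shared slide, that is without corn oil replicate 2, it was 0.54 ± 0.18 (adjusted p = 0.313), and without corn oil replicate 1 it was 0.22. The 2 other probes of the same transcript gave less, 0.17 ± 0.13 and 0.0032 ± 0.17, and the mean over the 3 probes was 0.18. After spike-in scaling the change on the brightest probe was 0.041. The size of the difference therefore depended on which probe was read.

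Slc6a12 gave a dim signal, with a linear intensity of 102 to 113 on the corn oil arrays and a lowest value of 69.6, on treated replicate 2. Its brighter probe read -3.07, -2.78 and -2.81 on corn oil replicates 1, 2 and 3, and -2.68, -3.02 and -2.62 on treated replicates 1, 2 and 3. Treated replicates 1 and 3 lay above the corn oil arrays, and treated replicate 2 lay near the lowest of them. The log2 change was 0.12 ± 0.14 (SE), with a 95% interval from -0.22 to 0.46 (limma adjusted p = 0.654), and it was -0.20 after spike-in scaling. With another background correction, normexp on the median signals, it was 0.23 (adjusted p = 0.198). The second probe was well above background on 3 corn oil arrays and 1 treated array, and gave 0.082 ± 0.28.

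Across rats, the brightest probes of the 3 importers and of the enzyme took opposite places. Treated replicate 2 had the lowest value of the treated group for Slc5a3, Slc6a6 and Slc6a12, and the highest for Akr1b1. Corn oil replicate 2 had the highest value of the corn oil group for the 3 importers and the lowest for Akr1b1. Nfat5 was like the importers in this, being lowest of the treated group on replicate 2 and highest of the corn oil group on replicate 2. The other probes did not all share this: corn oil replicate 2 was the lowest of its group on the other Slc6a6 probe, and on the other Slc6a12 probe corn oil replicate 3 was highest and treated replicate 3 lowest. The pattern was noticed in the values and was not tested, and treated replicate 2 was also the dimmest array and corn oil replicate 2 the array on another slide.

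Slc14a2 encodes the UT-A urea transporters, which carry urea in the inner medullary collecting duct and the thin descending limb. The probe that passed the filter read -3.22, -3.30 and -3.51 on corn oil replicates 1, 2 and 3 and -3.36, -3.39 and -3.23 on treated replicates 1, 2 and 3. All 3 treated values lay inside the corn oil range. The log2 change was 0.016 ± 0.10 (SE), with a 95% interval from -0.24 to 0.27 (limma adjusted p = 0.943), and it was -0.30 after spike-in scaling. Leaving out corn oil replicate 3 gave -0.066 and leaving out treated replicate 3 gave -0.034. The linear intensity of this probe was low, 69.9 to 91.3 with corn oil and 53.7 to 66.9 with treatment. The other 2 probes, 1 assigned to the same transcript NM_177962 and 1 to NM_019347, were not well above background on any array, so the probes of this gene disagree on whether it was measured at all. Slc14a1, the UT-B urea transporter of red cells and descending vasa recta, was dim as well, at -5.70, -4.86 and -5.05 on corn oil replicates 1, 2 and 3 and -5.64, -4.87 and -4.31 on treated replicates 1, 2 and 3 (log2 change 0.26 ± 0.38). Erythroid markers, of which all 5 were measured, had summed levels of 281 to 412 in the corn oil group and 532 to 878 in the treated group, and their part in the Slc14a1 values was not tested.

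**Figure D3:**
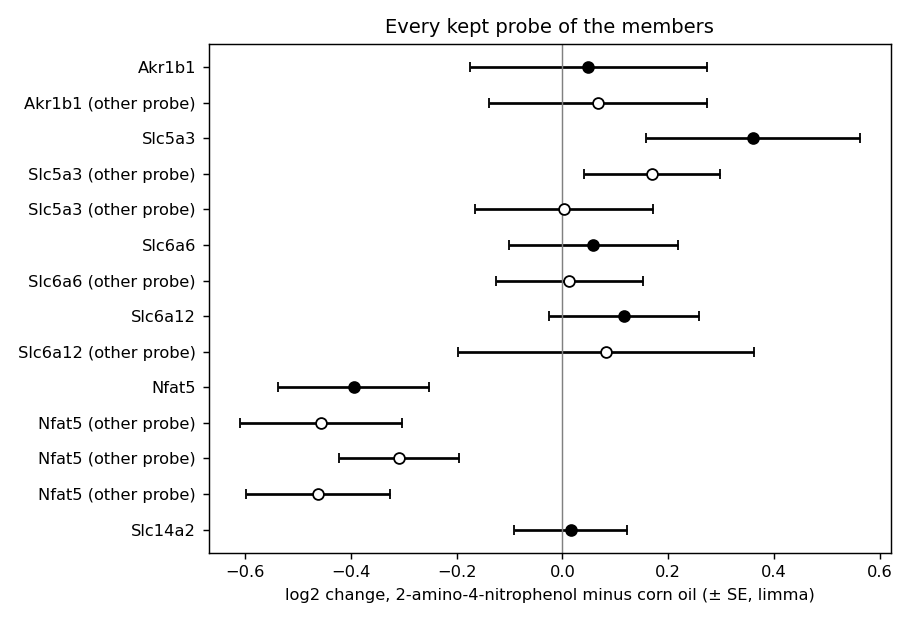
Log2 change (2-amino-4-nitrophenol minus corn oil) with the limma SE for each of the 14 kept probes of the 6 members; filled points are the brightest probe of a gene and open points its other probes. The 4 Nfat5 probes lie between -0.46 and -0.31, and the 3 Slc5a3 probes between 0.0032 and 0.36.

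The wider pathway was read from 5 lists with 51 genes, of which 44 were tested. None passed the test (lowest limma adjusted p = 0.130), and 10 (22.7%) had an unadjusted p under 0.05, 6 higher and 4 lower, beside 21.6% of all genes. Enzymes that make or break down osmolytes, 15 of 19 measured, had a median log2 change of 0.062 (-0.087 with quantile normalization, -0.26 with spike-in scaling). Csad, the decarboxylase that makes hypotaurine, had log2 values of -1.39, -1.32 and -1.27 on the corn oil arrays and -0.84, -0.93 and -0.41 on the treated arrays, a change of 0.60 ± 0.15 (adjusted p = 0.130). Ado, which makes hypotaurine from cysteamine, had 0.43 ± 0.12 (adjusted p = 0.144). With spike-in scaling Csad had 0.28 and Ado 0.11. Cdo1, the cysteine dioxygenase that precedes Csad and is named here after its values were seen, had 0.43 ± 0.17 (adjusted p = 0.213). These genes were picked for low p or after their values were seen. Over the whole list, 4 of 15 were higher without overlap and 2 of 15 lower, where 20.1% and 10.1% of all genes were. The 2 lower were Isyna1 (-0.26 ± 0.10, limma adjusted p = 0.223) and Dmgdh (-0.21 ± 0.095, limma adjusted p = 0.257). Gpcpd1 had -0.34 ± 0.13 with overlap, and these too are named after their values were seen. Sord, which turns the sorbitol made by Akr1b1 into fructose, had 0.12 ± 0.090, and Miox, which breaks down myo-inositol in the proximal tubule, had 0.27 ± 0.13; both were chosen for their place beside Akr1b1 and Slc5a3, after their values were seen.

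Other carriers of osmolytes and urea, 8 of 8 measured, had a median of 0.084 (-0.24 after spike-in scaling). Slc2a13, the proton-coupled myo-inositol transporter, read -1.24, -1.15 and -1.26 on the corn oil arrays and -0.91, -0.85 and -0.92 on the treated arrays. Its change was 0.32 ± 0.076 (adjusted p = 0.130), but 0.0043 after spike-in scaling. Slc44a1, a choline transporter, had -0.17 ± 0.075 (adjusted p = 0.248), and its other probe gave 0.24. The LRRC8 subunits of the volume-regulated anion channel, through which swollen cells release osmolytes, had a median of -0.18 over 5 of 5 members (-0.50 with spike-in scaling). Lrrc8a, the subunit that the channel cannot do without, had -0.26 ± 0.074 (adjusted p = 0.147) and, from its other probe, -0.999 ± 0.25, without overlap on either. Lrrc8b had -0.19 ± 0.11 (adjusted p = 0.377). With spike-in scaling Slc44a1 had -0.49, Lrrc8a -0.58 and Lrrc8b -0.51.

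Other genes that respond to hypertonic medium, 10 of 12 measured, had a median of 0.11 (-0.030 with quantile normalization, -0.21 with spike-in scaling). Cryab, a small heat shock protein abundant in the inner medulla, read 3.42, 3.41 and 3.28 on the corn oil arrays and 3.86, 3.73 and 4.72 on the treated arrays. The change of Cryab was 0.73 ± 0.26 (adjusted p = 0.191), and 0.42 in the lowest of the fits that left out 1 array. The sodium-potassium-chloride cotransporter Slc12a2 had -0.11 ± 0.076 (adjusted p = 0.407), and its other probes gave -0.33 and -0.30 without overlap and -0.10 with overlap. With spike-in scaling Cryab had 0.41 and Slc12a2 -0.43. Enzymes of arginine and urea, 7 of 8 measured, had a median of -0.055 (-0.24 with quantile normalization, -0.37 with spike-in scaling). Arg2, the mitochondrial arginase of the kidney, which makes urea from arginine, read -1.25, -0.90 and -1.19 on the corn oil arrays and -0.075, -0.58 and 0.36 on the treated arrays. The difference in Arg2 was 1.01 ± 0.24 (2.02-fold; adjusted p = 0.130). Agmat, which makes urea and putrescine from agmatine, had -0.44 ± 0.11 (adjusted p = 0.135), and -0.76 with spike-in scaling. Cps1, which begins the urea cycle in the liver, was well above background on none of the 6 arrays.

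**Figure D4:**
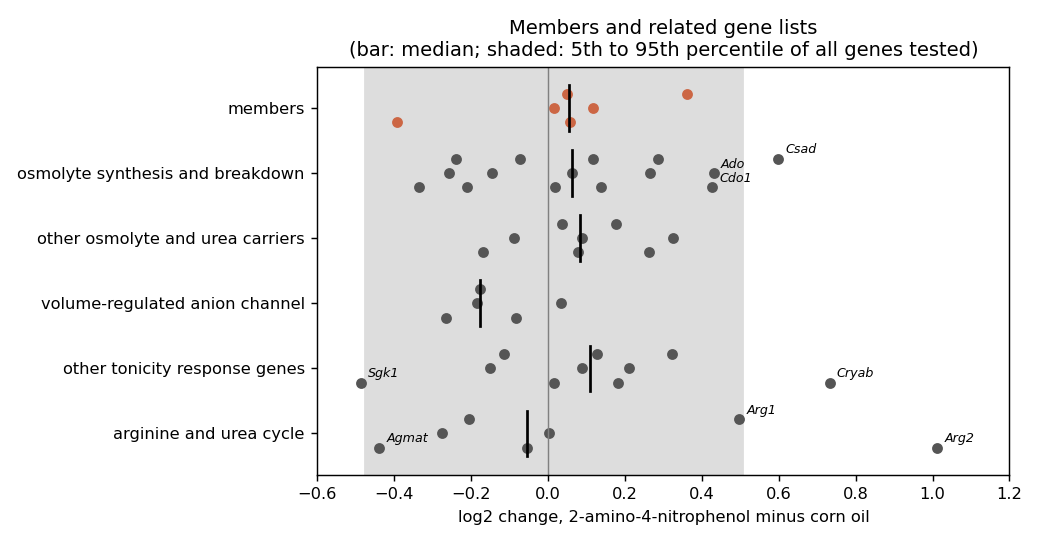
Log2 change of the members and of the tested genes of 5 related lists, with the list median as a bar and the span from the 5th to the 95th percentile of all genes tested (-0.48 to 0.51) shaded. All 6 members lie inside the shaded span, Arg2, Cryab and Csad lie above it, and Sgk1, a kinase gene on the tonicity list, lies just below it (-0.49).

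Because the members are known from the medulla, markers rich there were read beside them. Of 8 listed, 7 were measured (Fxyd4 has no named probe), none passed the test, and their median log2 change was 0.26 (-0.058 after spike-in scaling). Their summed level was 13.3 to 15.1 in the corn oil group and 17.4 to 30.3 in the treated group, but without Cryab the other 6 markers summed to 3.63 to 4.46 and 3.98 to 4.5, which overlap. Cryab alone thus separated the groups in that sum, and the sums without a list's largest contributor were added after its values were seen. The median of the list relative to the corn oil means was 0.28, 0.33 and 0.19 on treated replicates 1, 2 and 3, and 0.20 on corn oil replicate 2 against -0.048 and -0.073 on corn oil replicates 1 and 3. Corn oil replicate 2 had the highest value of its group both for this list and for Slc5a3. Treated replicate 2 had the highest value of its group for this list and the lowest for Slc5a3. The part of medullary tissue in the values of the members was not tested. Thick ascending limb markers, 5 of 6 measured, had a median of 0.35 (0.030 with spike-in scaling) and lay at -0.11 on treated replicate 1. Their sums were 300 to 332 in the corn oil group and 384 to 484 in the treated group, but 37.9 to 45.2 and 38 to 41.4 without Umod, and Egf (-0.19) and Kcnj1 (-0.16) had changes below 0. Urothelium markers were faint, with sums of 0.335 to 0.483 and 0.262 to 0.448, and Upk2 and Krt20 were not well above background on any array. Proximal tubule sums were 1070 to 1150 and 1140 to 1180, and the median log2 change of the 7 markers was 0.056. That median was -0.28 with quantile normalization, -0.26 with spike-in scaling and -0.014 after normexp correction. Single markers of that list went both ways, with Slc7a13 at 1.21, Lrp2 at -0.34 and Cubn at -0.52. In it 3 of 7 markers were higher without overlap and 1 of 7 lower, where 20.1% and 10.1% of all genes were. These counts are no result about the markers. Endothelium sums were 73.8 to 85.8 and 78.9 to 90.2, and leukocyte sums 60.6 to 77.8 and 74.9 to 97.6. The leukocyte sums without Lyz2 were 2.53 to 2.77 and 2.4 to 2.73, and the median log2 change of the 4 markers measured was -0.097. Lyz2 had 0.29, Cd68 0.035, Ptprc -0.23 and Cd3e -0.97. Cd3e was dim, with group means of -4.41 with corn oil and -5.39 with treatment, and its groups overlapped.

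The genes most like each member over the 6 arrays were found by Pearson correlation, given as a description with no p. Difference between groups, depth and slide all enter it. The values are also the highest among all other genes tested, over only 6 arrays, so a high r is no result in itself. For Nfat5 these were Lsg1 (r = 0.997) and Itpr2 (r = 0.997), with log2 changes of -0.20 and -0.42. For Slc5a3 they were Sypl1 (0.994) and Hbp1 (0.978), for Slc6a6 Hook2 (0.997) and Serinc1 (0.993), and for Slc6a12 Abi1 (0.993) and Atp6v1h (0.987). For Akr1b1 they were Gltp (0.991) and Hdac1 (0.990), and for Slc14a2 Tafa5 (0.982) and Med24 (0.964). No gene was shared between these pairs.

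**Figure D5:**
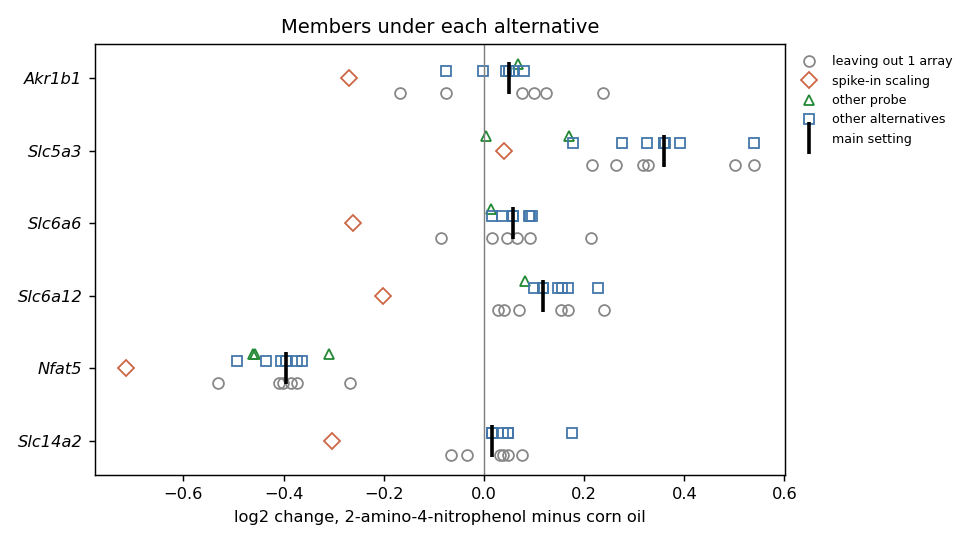
Log2 change of each member in the main setting (black bar) and under each alternative: leaving out 1 array, spike-in scaling, another probe of the gene, and other processing settings. Nfat5 stays below 0 throughout (-0.71 to -0.27) and Slc5a3 above 0 (0.0032 to 0.54), while the other 4 members fall on both sides of 0.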

How the data were processed

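Renal cortex RNA of 6 rats was hybridised to single-colour Agilent arrays, per the labels. Per the file headers, Agilent Feature Extraction 10.7.1.1 (10.7 in the submitters' processing notes) gave each spot's deposited intensity, which is linear and already corrected for background and spatial trend. The authors' value table holds a deposited ratio, each intensity over the 75th percentile of its array. Each of its columns agreed, within its group, with the scanner file of a differently numbered replicate (SD of the log2 difference 0.000331 to 0.000353 over 36961 probes), so replicate numbers follow the scanner files.

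Here intensities were divided by the array's 75th percentile and put on the log2 scale. After removal of 64 outlier probes, a probe was kept if every array of 1 group or both had it well above background. Genes were named through the probe's RefSeq accession and the RefSeq table of GRCr8 (27460 of 61657 probes). Each gene's brightest kept probe was fitted with lmFit and eBayes of limma 3.58.1 (R 4.3.3), with Benjamini-Hochberg adjustment over 11748 genes and a threshold of 0.05. The fit was run on simulated data in which 200 genes were changed by a log2 fold of 2, and 92.5% of them were recovered, with 11 false calls. That change is larger than any of the members had, so the run does not show whether changes of their size could be found. No 2 arrays of a group were alike (SD of log2 differences 0.294 or more). The labels give 3 animals per group.

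The members and lists were chosen with earlier results of these data known. Genes named from each list are the 2 with the lowest p, unless said otherwise. Normexp used median signals, since these are what the scanner files hold. Fitting each probe as a feature of its own was added after seeing the data.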

Additional observations from a re-analysis of the deposited data

How the results depend on the processing

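No member passed the limma threshold under any alternative. At an unadjusted p under 0.05 there was 1 member in the main setting, 2 after normexp correction and 0 with the replicate block or without corn oil replicate 1 or 3 or treated replicate 2 or 3. With the slide block that member was Slc5a3 (limma unadjusted p = 0.0274) and not Nfat5 (limma unadjusted p = 0.0806). Nfat5 (20 alternatives) and Slc5a3 (19) kept their sign throughout. Scaling on 7 spike-in probes moved the median log2 change of all genes from 0.044 to -0.28 and gave -0.27 for Akr1b1, -0.26 for Slc6a6, -0.20 for Slc6a12 and -0.30 for Slc14a2 (all reversed). Akr1b1 was also -0.0014 after normexp correction and -0.077 with the slide as a block. Leaving out each array in turn gave -0.17 to 0.24 for Akr1b1, -0.086 to 0.21 for Slc6a6, -0.066 to 0.075 for Slc14a2, 0.028 to 0.24 for Slc6a12, 0.22 to 0.54 for Slc5a3 and -0.53 to -0.27 for Nfat5. Corn oil replicate 2 is alone on its slide, so blocking on slide and leaving it out are the same check.

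Of all genes, 3 passed in the main setting, 56 after normexp correction, 8 after spike-in scaling and 69 with trend and robust settings. In limma 0 passed with no filter on dim probes, with the mean over probes, with the replicate block or with the slide block (3496, 2443, 2121 and 1764 genes at an unadjusted p under 0.05). Without 1 array the count was 0 to 74, with 74 without treated replicate 2, 14 without treated replicate 1 and 0 without any 1 corn oil array (1745, 1761 and 1546 at an unadjusted p under 0.05). The causes were not tested.

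Same-numbered arrays did not deviate together (correlations 0.0065, -0.050 and -0.032 across genes), so the replicate block pairs rats that share only a number; with it the Nfat5 change was -0.39 with an adjusted p of 0.279. Signal over background limits Slc6a12 and Slc14a2, and 2 Slc14a2 probes gave no usable value.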
